A study of Mus musculus with 2 samples.

Results

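Trimethylation of histone H3 at lysine 4 (H3K4me3) marks the promoters of active and poised genes, and most of its signal in a cell lies at transcript starts. The peaks described here are the narrow ones that lay inside genes but away from any start. They were mapped by ChIP-seq in MEL, an immortalized mouse erythroleukaemia line that carries no transgene or treatment in the labels, in 2 libraries of 1 group with no second condition. Both libraries are labelled biological replicates, numbered 1 and 2, but point to a single cell sample. What the spread between them covers is therefore unclear, and the p-values below describe these lists of peaks.

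The members were the peaks of the replicated list on chromosomes 1 to 19 that met 4 conditions: a width under 1000 bp, a summit inside a protein-coding gene of GENCODE M21, a summit in no annotated exon, and no transcript start of any gene type within 5000 bp of the peak. Of 37387 replicated peaks, 36215 lay on these chromosomes and 25198 of those were narrow. A summit in a protein-coding gene left 12192, a summit in no exon left 9108, and the distance to starts left 3696 members, or 10.2% of the replicated peaks on these chromosomes. Another 304 peaks met every condition but the width. The widest member measured 997 bp, and the narrowest peak past the limit 1000 bp. The comparison class was 5373 narrow peaks, also over 5000 bp from any start, whose summit lay in no gene of any type, called narrow intergenic peaks below.

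Small H3K4me3 signals away from known starts can lie at enhancers, which in most cells carry more mono- than trimethylation of this residue, and at starts that the annotation lacks. In red cell precursors, enhancers are known to be bound by GATA1, by KLF1 and by the TAL1 complex, and MEL cells also carry a high level of PU.1, an ETS factor encoded by Spi1 that Friend virus insertion activates. The words searched for below are short stretches of sequence typical of such factors, counted on both strands. The words that stand for GATA factors are AGATAA with its variant AGATAG, and TGATAA with its variant TGATAG. Of the others, GAGGAAGT stands for PU.1-type ETS factors, CCACACCC for KLF factors, TGAGTCA for AP-1 type factors, TGTGGT for RUNX factors and CCGGAAGT for GABPA-type ETS factors. AGATAA is 1 of the 4 GATA words, and the 2 ETS words share their last letters. A match is a description of the letters and not evidence of binding.

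The sequences below show where these words lay, from the RefSeq GRCm38.p6 genome, which is the build named mm10, on the plus strand. Capitals mark the 4 GATA words and GAGGAAGT on either strand. The first pair are 200 bases around the summit, of the member with the highest signal value (chr6:54955050-54955249, intron 1 of Nod1) and of the strongest member in a listed erythroid host (chr7:115550160-115550359, intron 9 of Sox6).
Nod1 summit: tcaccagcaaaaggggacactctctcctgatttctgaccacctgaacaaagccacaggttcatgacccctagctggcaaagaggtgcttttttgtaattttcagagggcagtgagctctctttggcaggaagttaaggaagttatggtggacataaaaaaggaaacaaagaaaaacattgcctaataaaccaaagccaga
Sox6 summit: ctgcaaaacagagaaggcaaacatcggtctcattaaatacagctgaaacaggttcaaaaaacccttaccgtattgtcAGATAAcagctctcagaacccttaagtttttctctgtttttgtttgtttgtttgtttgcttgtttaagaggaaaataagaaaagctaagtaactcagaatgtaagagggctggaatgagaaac
The next 5 are whole gaps between neighbouring members, in introns of Creb3l1, a transcription factor of the endoplasmic reticulum stress response (chr2:92008361-92008560), Tekt5, a protein of sperm flagella (chr16:10384324-10384473), Znrf1, a ubiquitin ligase (chr8:111573540-111573835), Mitf, a transcription factor of pigment and mast cells (chr6:97856628-97856699), and Fry, the furry homologue (chr5:150156192-150156270). Among gaps of at most 300 bp holding a GATA word or GAGGAAGT, they are the 5 whose weaker neighbour had the highest signal value. Such words were present in 369 of the 748 gaps of that size (49.3%), so these 5 were chosen for having one. The last is the gap between 2 members in intron 2 of Bach1 (chr16:87717356-87717585), the repressor of haem-responsive genes. It was chosen after its words were seen. The other 4 such gaps in listed erythroid hosts, in Car1, Kit, Sptb and Tcf12, held no GATA word and no GAGGAAGT.
Creb3l1 gap: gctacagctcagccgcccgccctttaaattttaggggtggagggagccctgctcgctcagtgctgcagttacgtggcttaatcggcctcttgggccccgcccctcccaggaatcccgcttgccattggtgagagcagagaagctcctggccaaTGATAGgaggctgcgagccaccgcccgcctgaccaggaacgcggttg
Tekt5 gap: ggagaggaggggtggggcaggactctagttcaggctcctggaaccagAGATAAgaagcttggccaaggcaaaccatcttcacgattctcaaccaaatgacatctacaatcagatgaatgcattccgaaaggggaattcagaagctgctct
Znrf1 gap: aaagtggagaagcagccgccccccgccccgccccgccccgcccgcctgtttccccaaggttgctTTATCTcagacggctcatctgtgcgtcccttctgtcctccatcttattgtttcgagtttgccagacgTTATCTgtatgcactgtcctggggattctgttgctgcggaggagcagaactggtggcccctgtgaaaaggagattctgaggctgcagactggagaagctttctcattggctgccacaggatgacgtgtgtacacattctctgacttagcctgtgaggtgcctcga
Mitf gap: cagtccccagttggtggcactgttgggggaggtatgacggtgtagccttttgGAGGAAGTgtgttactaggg
Fry gap: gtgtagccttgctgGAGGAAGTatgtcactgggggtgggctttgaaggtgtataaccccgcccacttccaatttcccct
Bach1 gap: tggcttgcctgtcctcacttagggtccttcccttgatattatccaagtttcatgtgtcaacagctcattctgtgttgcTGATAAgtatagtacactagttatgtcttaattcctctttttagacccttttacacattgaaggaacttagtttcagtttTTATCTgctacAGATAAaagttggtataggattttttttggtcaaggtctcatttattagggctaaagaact
The Nod1 window held no GATA word and no GAGGAAGT, and the Sox6 window held 1 AGATAA. The Znrf1 gap held 2 GATA words and the Bach1 gap held 3. The reference masks as repeats 75% of the bases of the Mitf gap and 69.6% of those of the Fry gap. It also masks 31% of the bases of the Sox6 window, the summit base among them.

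Only peak lists were analysed, the depth of the libraries is unknown, and a site without a peak may have been sequenced too thinly to be called. The list of replicate 1 held 51790 peaks and that of replicate 2 held 41508. As a check of the label, marker genes were searched for a replicated peak within 1000 bp of a start, called a TSS peak below. All 7 erythroid markers had one, against 0 of 4 lymphoid, 0 of 4 myeloid and 2 of 4 megakaryocyte markers. In the longer lists used further on, TSS peaks were present for 5 of 20 lymphoid, 4 of 16 myeloid and 5 of 13 megakaryocyte genes. Over all protein-coding genes the share was 51.4%.

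The members were short and weak peaks. Their median width was 333.5 bp (quartiles 224 and 520), and their median signal value, a score made by the authors, was 4.18 (lowest 1.67, highest 26.2). The median member stood at percentile 25.2 of all replicated peaks by signal value. A signal value above the median of that list was held by 521 members (14.1%). A −log10 q of at least 5 was reached by 2097 members (56.7%), against 78.7% of all replicated peaks on these chromosomes, and 138 members (3.73%) had a q-value above 0.05.

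The replicate 1 list overlapped 92.7% of the members and the replicate 2 list 95.02%, a mean of 93.9% ± 1.61 (SD, n = 2). By the deposited notes, the replicated list was made from these 2 lists and the pooled one, so overlap with them was partly built in. Both lists overlapped 3244 members (87.8%), below the 92.7% of all replicated peaks. Another 184 members were overlapped by the list of replicate 1 alone and 268 by that of replicate 2 alone. The share overlapped by both was larger for stronger members, from 77.4% of the weakest 20% of members to 98.8% of the strongest 20%. Narrow intergenic peaks had nearly the same share (87.8%). The difference was −0.0389 percentage points with a 95% interval of −1.42 to 1.32, and it did not pass the test (two-sided Fisher's exact test, Benjamini-Hochberg adjusted over 4 comparisons, p = 0.974). Across the 3244 members in both lists, the signal values of the overlapping replicate peaks had a Spearman rho of 0.539, a description across peaks that share 2 libraries.

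The strongest members were spread over hosts of many kinds. The peak in intron 1 of Nod1, an intracellular sensor of bacterial cell wall fragments, had the highest signal value (26.2). It stood at percentile 99.5 of the replicate 1 list and 99.1 of the replicate 2 list. Next came peaks in Cldn10 (24.7), a tight junction claudin, in Pde4d (22.6), a cyclic AMP phosphodiesterase, in Lims1 (22.5), a focal adhesion adaptor, and in Itpkb (22.2), an inositol trisphosphate kinase. The remaining members of the first 10 lay in Mettl24 (20.8), Ptk7 (20.6), Ghr (20.4), Adamts13 (19.1) and Ephb2 (18.7). All 10 were overlapped by both replicate lists, but the order of the lists differed: the Lims1 peak stood at percentile 99.8 in replicate 1 and 80.6 in replicate 2. The host had a TSS peak for Nod1, Pde4d, Lims1, Itpkb and Adamts13 and none for Cldn10, Mettl24, Ptk7, Ghr and Ephb2.

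The density of members was lower farther from starts. Eligible intron, meaning bases of protein-coding genes in no exon and over 5000 bp from any start, came to 632 Mb, and it held 5.85 members per Mb (95% Poisson interval 5.66 to 6.04). From 5 to 10 kb from the nearest start of any gene the density was 8.27 per Mb (1228 members, 7.82 to 8.75). It was 7.34 from 10 to 20 kb (1197 members) and 5.25 from 20 to 50 kb (949 members). Beyond that it was 2.62 from 50 to 100 kb (229 members) and 1.79 past 100 kb (93 members, 1.44 to 2.19). The lists of the replicates, put through the same rule, gave 12.2 ± 3.11 per Mb in the nearest bin and 2.75 ± 0.490 in the farthest (SD, n = 2). The order of the 5 bins was the same in each list. Narrow intergenic peaks had the same order, from 9.65 to 1.401 per Mb. The median signal value did not follow this order: it was 4.04 in the nearest bin and 4.50 in the farthest.

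**Figure D1:**
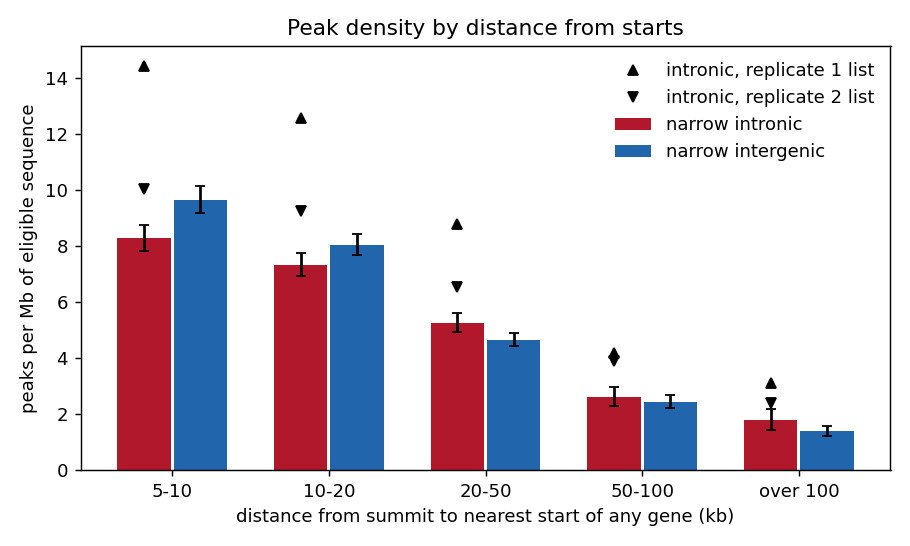
Peaks per Mb of eligible sequence (vertical axis) by distance from the summit to the nearest start of any gene in kb (horizontal axis). Bars show the replicated list with 95% Poisson intervals of counting error, triangles the intronic peaks of each replicate's own list. Narrow intronic peaks run from 8.27 per Mb in the nearest bin to 1.79 in the farthest.

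The median distance from a member's summit to the nearest start of any gene was 14244.5 bp (quartiles 8532.5 and 25125), where the rule sets the lower end. The nearest start belonged to the host gene for 2355 members (63.7%). The median distance from the host's own nearest start was 18659.5 bp and that from its 5'-most start 45437 bp. The first intron of the longest transcript over the summit held 1326 members (35.9%), the second 652 (17.6%) and later introns 1718 (46.5%). How eligible intron divides among these was not measured. Along the length of the host, successive stretches of 20% held 21.4%, 24.1%, 20.9%, 18.3% and 15.3% of the members. Members of first introns and of later ones had close median signal values, 4.12 and 4.26.

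Members farthest from a start lay in very long genes. The farthest, 557650 bp from any start, lay in Dcc, the netrin receptor, on chromosome 18. The next lay in Cdh12, a cadherin (357093 bp), Gpc5, a glypican (324021 bp), Rad51b, a recombination factor (285360 bp) and Gucy1a2, a guanylate cyclase subunit (271764 bp). Both replicate lists overlapped all 5, and their signal values ran from 3.83 to 7.30. At the other end, the members just inside the limit lay in Babam2, Mrvi1, Lrrc75a, Lmtk2 and Ptger4, with edges 5003 to 5009 bp from a start and signal values from 2.41 to 4.47. The peaks just outside it lay in Map2k4, Nsf, Inpp5f, Gpr55 and She, 4994 to 4999 bp away, with signal values from 1.94 to 4.36. The 2 sets overlap in signal value.

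Starts that GENCODE M21 lacks were looked for in the RefSeq annotation. A curated RefSeq start lay within 5000 bp of 30 members, and any RefSeq start, model transcripts included, within 1000 bp of 134 members (3.63%) and within 5000 bp of 407 (11.01%). The corresponding shares of narrow intergenic peaks were 5.47% and 14.2%.

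Members lay close to one another. Joined across gaps of up to 1000 bp they formed 2757 sites: 1967 held a single member, 667 held 2 and 123 held 3 or more. In all, 46.8% of the members shared a site with another member, against 43.3% of narrow intergenic peaks and 68.3% of all replicated peaks joined in the same way. The largest sites held 6 members each, across 3270 bp of Rnf130, a ubiquitin ligase, and 3530 bp of Prkca, a protein kinase C. The 939 gaps between neighbouring members measured 156 bp at the median (quartiles 90 and 237.5), and 855 were under 400 bp. Members of a site share their surroundings and are not independent of each other.

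The GATA and PU.1-type words were denser in these gaps than under the peaks beside them. The 4 GATA words occurred 4.58 times per kb of gap (852 matches, 95% Poisson interval 4.28 to 4.90), against 2.17 per kb of the members on either side (2.06 to 2.29). Flanks lying 1000 to 2000 bp outside the sites had 2.19 per kb (2.15 to 2.23). AGATAA alone occurred 1.92 times per kb of gap (1.73 to 2.13), 0.743 per kb of the members beside the gaps and 0.643 per kb of flank. GAGGAAGT had the widest contrast among these, with 0.349 per kb of gap (65 matches, 0.270 to 0.445), 0.0618 per kb of the members beside them (0.0445 to 0.0835) and 0.0680 per kb of flank. The intervals cover counting error only and do not overlap between gaps and members for any of these words.

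The KLF word showed the same order. CCACACCC occurred 0.199 times per kb of gap (37 matches, 0.140 to 0.274), 0.0677 per kb of the members beside them (0.0495 to 0.0903) and 0.0802 per kb of flank. The contrast was smaller for the AP-1 type word TGAGTCA, with 0.317 per kb of gap (0.241 to 0.409) and 0.204 under the members (0.172 to 0.241), and for the RUNX word TGTGGT, with 1.13 (0.986 to 1.30) and 0.811 (0.744 to 0.881). CCGGAAGT was found 8 times in gaps and 8 times under the members beside them, and its intervals overlap. Gaps were slightly richer in G and C (47.0%) than the members beside them (44.6%). The GATA words are rich in A and T and CCACACCC in G and C, and the part of base composition in these rates was not tested.

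Each replicate's own list, put through the rule, gave the same order. In the replicate 1 list the 4 GATA words occurred 3.59 times per kb in 2198 gaps and 2.43 per kb under the peaks beside them. In the replicate 2 list the values were 4.29 in 1249 gaps and 2.20. The means were 3.94 ± 0.495 in gaps and 2.31 ± 0.169 under peaks (SD, n = 2). For GAGGAAGT they were 0.274 ± 0.0706 and 0.0696 ± 0.000804, and for CCACACCC 0.181 ± 0.00124 and 0.0804 ± 0.00365. TGAGTCA had closer means, 0.260 ± 0.000358 and 0.218 ± 0.00149. With repeat-masked bases left out of the replicated list, the values were 5.07 and 2.24 for the GATA words and 0.343 and 0.0665 for GAGGAAGT. Gaps between narrow intergenic peaks had 3.34 GATA words per kb (3.12 to 3.58), a range below that of the intronic gaps, and 0.274 GAGGAAGT per kb (0.213 to 0.347), which overlaps it.

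Members with no other member within 1000 bp showed the words beside the summit rather than on it. Replicated peaks that are not members may lie nearer to them. Around the 1967 single summits, the 4 GATA words occurred 2.26 and 2.47 times per kb in the 100 bp on either side. From 100 to 300 bp away the values lay between 3.42 and 3.63, and from 1000 to 2000 bp between 2.01 and 2.39. GAGGAAGT had 0.0712 and 0.0763 per kb in the central bins and 0.285 and 0.280 in the bins from 100 to 200 bp. Around the centres of the 855 short gaps the order was the other way: the GATA words had 4.14 and 5.04 per kb within 100 bp of the centre and 2.36 and 2.20 in the next bins out.

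**Figure D2:**
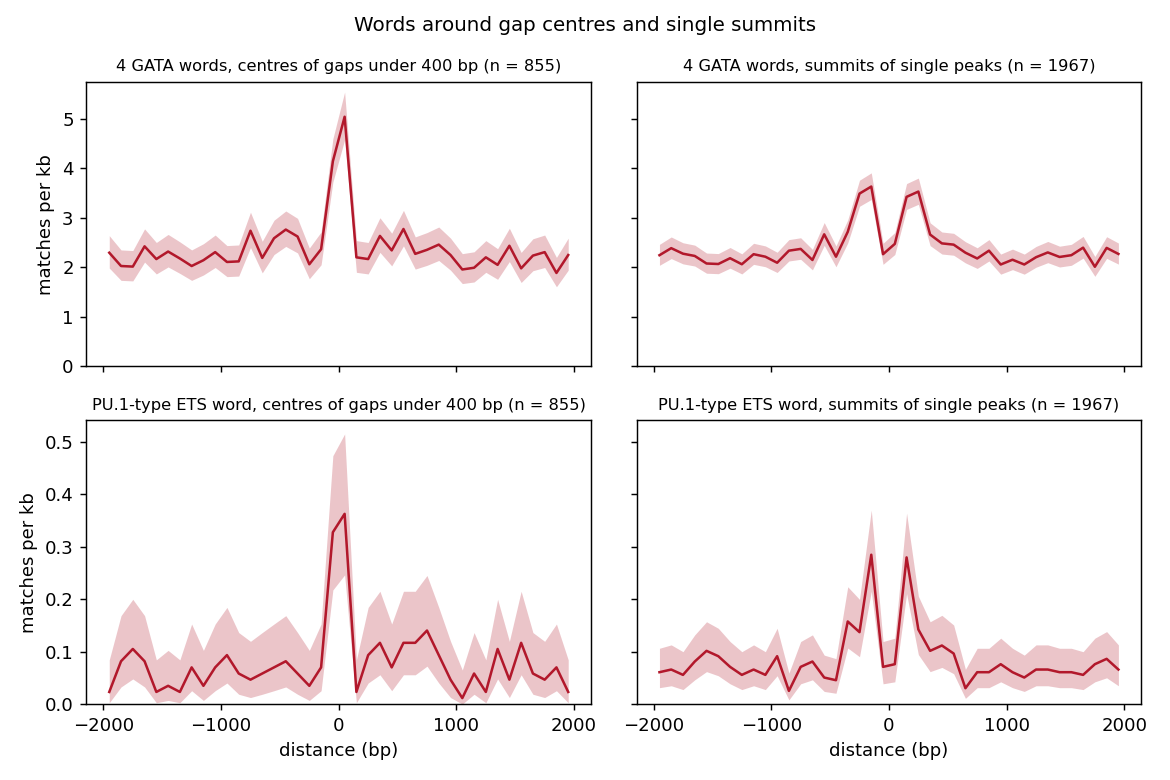
Matches per kb (vertical axis) in bins of 100 bp by distance in bp (horizontal axis) from the centres of 855 gaps under 400 bp (left) and from 1967 single summits (right), for the 4 GATA words (top) and the PU.1-type ETS word (bottom). Lines give the rate and bands 95% Poisson intervals. The rate is highest at gap centres, up to 5.04 per kb for GATA words, and beside single summits.

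Within 150 bases of the summit the words were less distinct. AGATAA was present near 898 member summits (24.3%), 22.4% of narrow intergenic summits and 15.1% of all replicated peaks. The difference between the intronic and intergenic classes was 1.87 percentage points (95% interval 0.102 to 3.65), and it did not pass the test after adjustment (two-sided Fisher's exact test, Benjamini-Hochberg, p = 0.0537). With all 4 GATA words the shares were 53.8% and 48.4%, a difference of 5.39 points (two-sided Fisher's exact test, adjusted p = 1.01e-06). Windows of the same length placed every 1000 bp over eligible intron held AGATAA in 19.2% and any of the 4 words in 49.6% of 631793 windows. In windows over intergenic sequence the shares were 20.3% and 53.4%. For the 4 words together, the intronic summits thus lay above their own background and near that of intergenic windows, while the intergenic summits lay below theirs. GAGGAAGT was near 145 member summits (3.92%), 4.47% of narrow intergenic summits and 1.76% of intron windows. TGAGTCA was near 6.71% of member summits and in 4.92% of intron windows, CCACACCC near 2.08% and in 1.83%, TGTGGT near 21.5% and in 20.8%, and CCGGAAGT near 0.703% and in 0.165%. Intron windows had a mean of 42.1% G and C, and the members 44.2% ± 6.80 (SD over peaks).

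Members were rarely CpG-rich, but more often than intron at large, and their summits were masked as repeats less often than intron and more often than replicated peaks as a whole. A window was called CpG-rich where its GC share reached 0.5 and its CpG count reached 0.6 of the count its base composition predicts. Such a window surrounded 32 member summits (0.866%), against 160 narrow intergenic summits (2.98%) and 25% of all replicated peaks. The intronic share was 2.11 points lower, a difference of −2.11 (95% interval −2.66 to −1.56) that passed the test (two-sided Fisher's exact test, Benjamini-Hochberg adjusted p = 2.25e-12). In intron windows the share was 0.250% and in intergenic windows 0.377%. The summit base was soft-masked as a repeat for 556 members (15.04%), 17.1% of narrow intergenic peaks and 11.9% of all replicated peaks. That difference, −2.04 points (−3.56 to −0.500), also passed Fisher's exact test (adjusted p = 0.0199), but it no longer did with 1 peak per site (−1.80 points, adjusted p = 0.0668). Intron windows were masked at their centre in 29.2% of cases and windows of eligible intergenic sequence in 39.3%, so the spaces the 2 classes come from differ in the same direction. The part of that in the difference was not tested.

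**Figure D3:**
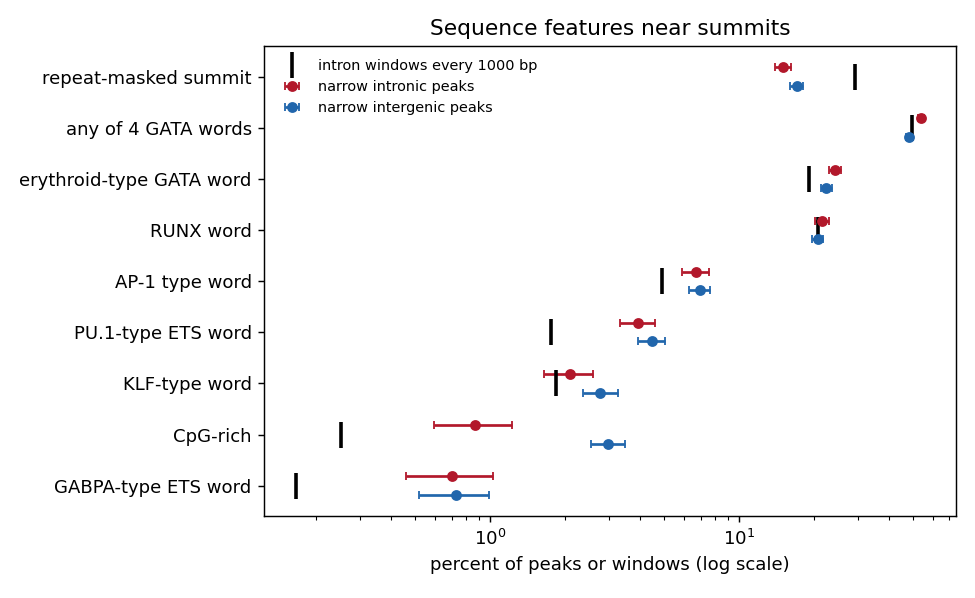
Percent of peaks or windows with each feature (horizontal axis, log scale) by feature (vertical axis). Points are narrow intronic and narrow intergenic peaks with exact 95% binomial intervals, and black bars are windows every 1000 bp of eligible intron. The PU.1-type ETS word is near 3.92% of intronic summits and in 1.76% of intron windows.

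The 3696 members lay in 1785 host genes, 14.2% of the 12592 protein-coding genes with eligible intron. A summit in more than 1 gene was counted for each, which gave 3797 pairs of a member and a host. Of the hosts, 930 had 1 member, 413 had 2, 281 had 3 or 4 and 161 had 5 or more, and these 161 held 1104 of the pairs. Hosts were long genes, with a median of 99.1 kb against 31.8 kb for the other genes.

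Hosts had a TSS peak more often than other genes of like intron length in most length classes. A TSS peak was present for 1212 hosts (67.9%, exact 95% binomial interval 65.7 to 70.1) and for 54.4% of the other 10807 genes with eligible intron. Genes were split by eligible intron into 5 classes of 20% each. In the class with most intron the shares were 65.3% (62.1 to 68.3) of 921 hosts and 36.2% (33.8 to 38.6) of 1598 others. In class 2 from the shortest they were 60.7% and 60.1%, with overlapping intervals. In the shortest class, with 28 hosts, they were 71.4% (51.3 to 86.8) and 55.6% (53.7 to 57.6), and these intervals overlap too. Counted by sequence, genes with a TSS peak held 10.1 members per Mb of eligible intron (9.75 to 10.5) and genes without one 2.79 (2.63 to 2.97). The replicate lists gave 15.1 ± 4.23 and 4.01 ± 0.237 per Mb (SD, n = 2). In the replicated list this contrast was uneven across the length classes. In class 2 the densities were 10.2 with a TSS peak and 8.83 without, and in the class with most intron 9.81 and 2.20. That last class held 309 of the 373 Mb of eligible intron in genes without a TSS peak, so it weighed most in their pooled 2.79. In the remaining classes the order was the same, with 4.30 to 5.41 per Mb in genes without a TSS peak. In all, 72.5% of the members lay in a host with a TSS peak. These values are a description: a gene's length sets both its chance of holding a member and its class, and no test was made.

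**Figure D4:**
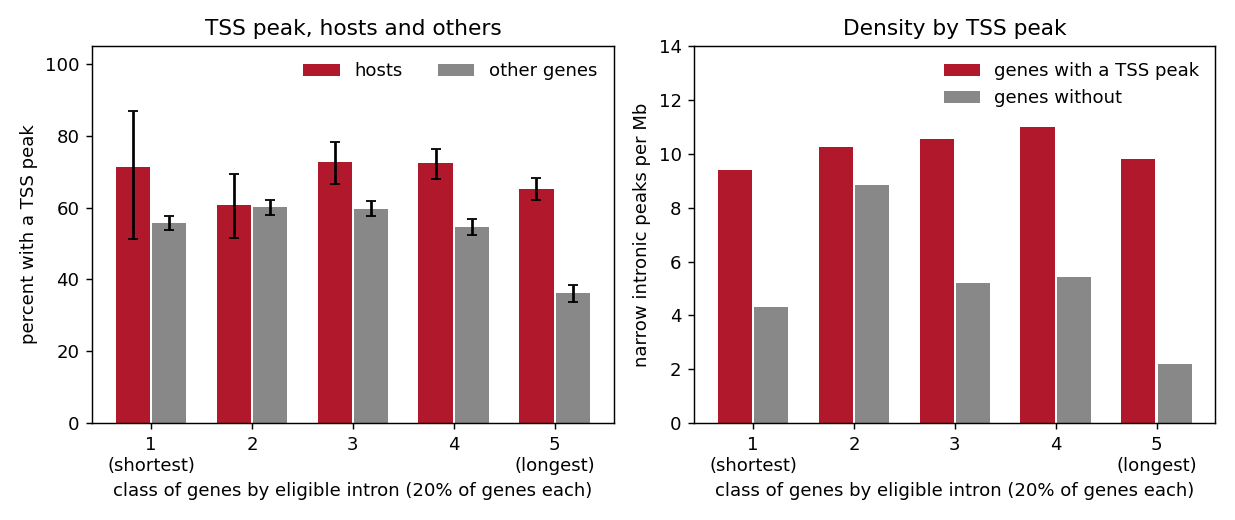
Left, percent of genes with a TSS peak (vertical axis) among hosts and other genes with eligible intron, with exact 95% binomial intervals. Right, narrow intronic peaks per Mb of eligible intron in genes with and without a TSS peak. Both are by class of genes by eligible intron, 20% of genes in each (horizontal axis), and in the longest class 65.3% of hosts and 36.2% of other genes have a TSS peak.

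The host with most members, Gm20388, is a gene model of 4435 kb on chromosome 8 that spans other genes. It held 44 members of the 3797 pairs, of which 21 also lay in another protein-coding gene, and 2489 kb of eligible intron. As 1 of 1785 hosts it could hardly move the share with a TSS peak, which was 67.9% without it. The densities were not recomputed without it. Gse1, which encodes a subunit of a histone deacetylase complex and lies within that model, held 16 members at 11 sites, with signal values from 2.30 to 10.4. Tiam1, an activator of the GTPase Rac, held 14 members at 8 sites from 2.62 to 7.61. Pde4d held 14 at 9 sites from 2.69 to 22.6. Pstpip2, a regulator of actin in myeloid cells, held 12 members within 93.0 kb on chromosome 18. Sgms1, a sphingomyelin synthase, also held 12.

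The remaining leading hosts had 11 members each. Rbm20, a splicing factor, held all 11 in its first intron, and Prkce, a protein kinase C, held 9 of 11 there. The first intron of Rbm20 measured 135655 bp, and the whole gene had 138 kb of eligible intron. Zbtb16, which encodes the transcription factor PLZF, held 11 members at 6 sites with signal values from 3.23 to 7.33, 10 of them overlapped by both replicate lists, and had no TSS peak. Fgfr2, a growth factor receptor annotated with a model of 2961 kb, held 11, of which 3 also lay in another protein-coding gene. For none of them was a start of Fgfr2 the nearest, and their summits lay 294571 to 786553 bp from the nearest Fgfr2 start, so the assignment to this host is doubtful.

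**Figure D5:**
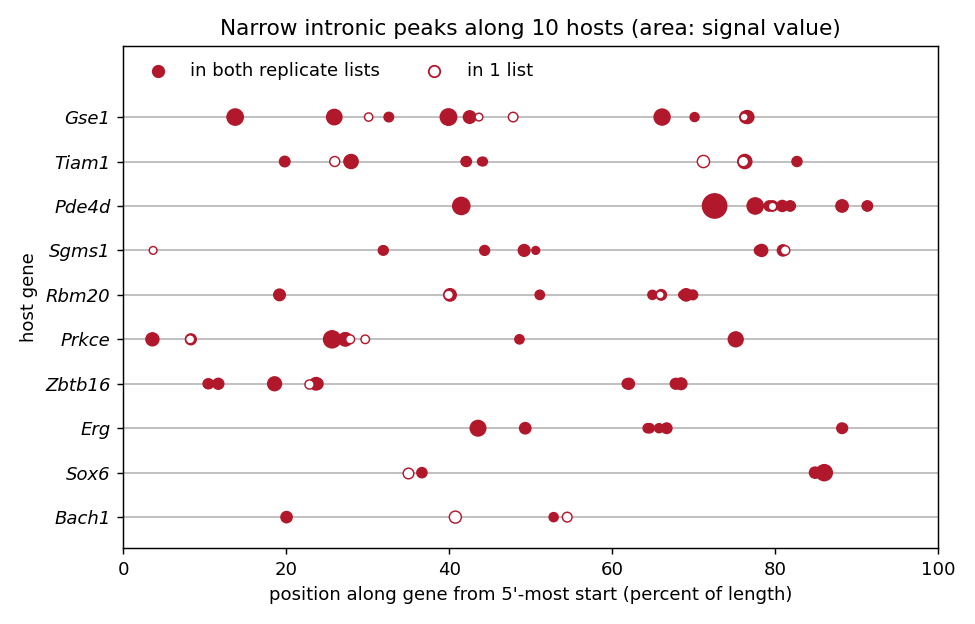
Position of narrow intronic peaks along 10 host genes (vertical axis), as percent of gene length from the 5'-most start (horizontal axis). Point area is the signal value, and open points were overlapped by 1 replicate list only. The largest point is the Pde4d peak with a signal value of 22.6.

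Among genes of the red cell programme, 6 of the 13 listed erythroid transcription factors with eligible intron were hosts, against 14.2% of all such genes. These 13 had a median of 35.2 kb of eligible intron, against 12.6 kb for genes that were not hosts. The list held 15.4 members per Mb (17 members, 8.997 to 24.7), against 5.89 per Mb over all genes and 10.1 over genes with a TSS peak, which lies inside the interval of the list. All 6 had a TSS peak, as did all 23 factors of the list found in the annotation. Sox6, which restrains embryonic globin genes, held the strongest of these, a peak with signal value 9.92 at percentile 78.9 of the replicate 1 list and 70.2 of the replicate 2 list. Its other 3 members ran from 3.98 to 4.82, and 1 was in the replicate 2 list alone. Bach1 held 4 members, from 3.18 to 5.54, of which 2 were in the replicate 1 list alone. The E-protein gene Tcf12 held 3 members, from 3.87 to 6.40, and its peak of 4.08 was in the replicate 2 list alone. Foxo3, a factor of the oxidative stress response, held 3, from 2.43 to 4.16. The Foxo3 peak of 2.64 was in the replicate 1 list alone. That of 2.43 had a −log10 q of 1.298, which is a q-value above 0.05. Runx1 held 2, of 3.28 and 2.55, and Zfpm1, which encodes the GATA1 cofactor FOG1, held 1 of 3.50, in the replicate 1 list alone.

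Genes of the red cell membrane and its enzymes gave 8 hosts of 22 and 20.8 members per Mb (14 members, 11.3 to 34.8). All 8 had a TSS peak. Over all genes with eligible intron, 14.2% were hosts and the density was 5.89 per Mb, or 10.1 over genes with a TSS peak. The listed genes had a median of 19.3 kb of eligible intron, against 12.6 kb for genes that were not hosts. Epb41, the skeletal protein 4.1, held members of 9.25 and 3.87, and Add1, an adducin, held 1 of 6.61. Ank1, the red cell ankyrin, held 1 of 4.91. Sptb, the red cell beta spectrin, held 4 from 2.54 to 4.13. The Sptb peak of 4.13 was in the replicate 1 list alone and that of 3.08 in the replicate 2 list alone. The carbonic anhydrase gene Car1 held 3 from 2.61 to 3.39 and Car2 held 1 of 3.12. The Car1 peak of 2.94 was in the replicate 2 list alone. Cd44, an adhesion receptor, held 1 of 4.05. The Rhag member, in the gene of the Rh-associated glycoprotein, was among the weakest, with a signal value of 2.50 and a −log10 q of 0.471, which is a q-value above 0.05.

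Haem and iron genes gave 2 hosts of 14 and 13.8 members per Mb (3 members, 2.85 to 40.3). Cpox, an enzyme of haem synthesis, held members of 7.41 and 4.58, and Steap3, an endosomal ferrireductase, held 1 of 3.89. The Steap3 member was in the replicate 1 list alone. Both Cpox members lay in a transcript with a single intron, of 39184 bp, the longest transcript over their summits. The Friend erythroleukaemia list gave 3 hosts of 5 and 22.7 members per Mb (4 members, 6.18 to 58.1), where 14.2% of all genes with eligible intron were hosts. Its genes had a median of 41.3 kb of eligible intron, against 12.6 kb for genes that were not hosts. Kit, the stem cell factor receptor, had no TSS peak and held 2 members 50 bp apart, of 6.22 and 2.78. The weaker Kit peak was overlapped by the replicate 1 list alone. Bcl2l1, which protects red cell precursors from cell death, held 1 of 4.34, and Fli1, an ETS factor gene and Friend virus insertion site, held 1 of 4.34.

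Lists of other blood genes and of other tissues had densities from 0 to 20.3 members per Mb. Over all genes with eligible intron, 14.2% were hosts and the density was 5.89 per Mb, or 10.1 over genes with a TSS peak. Median eligible intron was 96.5 kb for the RUNX, ETS and related genes and 40.9 kb for haematopoietic signalling genes. Hosts made up 36.6% of the class of genes with most eligible intron, and the part of intron length in these counts was not tested. RUNX, ETS and related blood regulators gave 13 hosts of 22 and 14.6 members per Mb (45 members, 10.6 to 19.5), led by Elf1 and Erg, ETS factor genes, and Nfia with 8 members each. Haematopoietic signalling genes gave 8 of 23 and 18.1 per Mb (19 members, 10.9 to 28.2), of which the adaptor gene Gab2 held 10. Chromatin regulators gave 5 of 27 and 6.67 per Mb (14 members, 3.65 to 11.2), of which Arid1b, a remodelling subunit, held 9. Megakaryocyte genes gave 2 hosts of 6 and 20.3 per Mb (3 members, 4.19 to 59.4), Vwf with 2 members and Itgb3 with 1. Myeloid markers gave 0 of 5 (0 members in 0.169 Mb, upper limit 21.9 per Mb) and lymphoid markers 1 of 10 and 5.86 per Mb (4 members, 1.60 to 14.99), all 4 in Ptprc.

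Neuronal markers had 1.43 members per Mb (13 members, 0.760 to 2.44) over 9.10 Mb, with 4 in Nrxn3. Muscle markers had 2.56 per Mb (Neb and Ryr1 with 1 each), liver markers 8.53 (Hnf4a with 2) and endothelial and fibroblast markers 7.33 (Flt1 and Pecam1 with 2 each), each from 4 members or fewer. TSS peaks were present for 23 of 23 erythroid factors, 28 of 29 chromatin regulators, 3 of 20 neuronal and 0 of 20 liver markers. These shares are over all listed genes found in the annotation, and the densities over those with eligible intron. The part of TSS peaks in the densities was not tested.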

How the data were processed

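H3K4me3 ChIP-seq peak lists of MEL cells on mm10 were analysed: 1 for each of 2 replicates, 1 pooled and 1 of replicated peaks. Per the deposited notes, each replicate list came from the alignments of its own library with a control, the pooled one from both libraries, and the list of replicated peaks from the other 3. For the aligner, peak caller, settings and rule for replication, nothing is given in the sources used here. The peak signal value is a score made by the authors, used only within a list, and the authors also deposited the −log10 q and the summit of each peak. The list on mm9 was not used here. Depth is unknown, so no interval covers sampling of reads.

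Starts, exons and genes came from GENCODE M21, and sequence, soft-masking and additional starts from RefSeq GRCm38.p6. Overlaps needed 1 bp. Shares were tested by Fisher's exact test (two-sided) over peaks, which are not independent replicates, adjusted over 4 comparisons, with Newcombe 95% intervals of the differences. No sequence from chromosome 18 was considered for printing. Other intervals are exact binomial or Poisson. Alternatives were 2500 and 10000 bp from starts, distance from the summit, width under 500 bp, −log10 q of at least 5, protein-coding exons, other lists, other windows and other words. Sites, gaps, their words, profiles, 1 peak per site and leaving out Gm20388 were added after seeing the data. Hosts named were those in the erythroid, haem, membrane and Friend lists, the 10 with most members, those of the 10 strongest, 5 farthest, 5 just inside and 5 just outside peaks, and the 2 with most members from each other list, with ties; some of these are not reported here. The members and lists were chosen with earlier results of these data known. The share test and word search were tested on simulated data. Python 3.11.15, numpy 2.4.6, pandas 2.3.3, scipy 1.17.1, statsmodels 0.14.6, pysam 0.24.0 and matplotlib 3.10.9 were used.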

Additional observations from a re-analysis of the deposited data

How the results depend on the processing

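The lower CpG-rich share of members kept its direction and passed the test in all 12 alternatives run (differences from −4.36 to −1.42 percentage points). The share overlapped by both replicate lists had no stable sign. Its difference was 0.00899 with 2500 bp from starts, 0.264 with 10000 bp, 0.544 with width under 500 bp, 0.530 with −log10 q of at least 5, 0.290 with 50% overlap, 0.291 with 1 peak per site and −1.82 with the pooled list (adjusted p = 0.0329, two-sided Fisher's exact test). It ran from −13.8 to 3.07 with 1 replicate's list, which overlaps itself by construction. The AGATAA difference passed the test with 2500 bp (2.07), with distance from the summit (1.97), with the pooled list (1.99) and with the 4 GATA words (5.39), was −0.267 within 50 bases of the summit, and ran from 1.09 to 1.88 with 1 replicate's list, where the 1.88, without replicate 2, also passed. The soft-masked difference no longer passed with 10000 bp (−1.11), width under 500 bp (−1.51), −log10 q of at least 5 (−1.62) or 1 peak per site (−1.80), and was −1.43 to −0.989 with 1 replicate's list.

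Members numbered 2436 with 10000 bp, 2097 with −log10 q of at least 5 and 4643 to 6301 with 1 replicate's list. The median distance was 10251 bp with 2500 bp, 20731 bp with 10000 bp and 13903 to 14725 bp with 1 replicate's list. The density at 5 to 10 kb was 4.53 per Mb with −log10 q of at least 5 and 10.02 to 14.4 with 1 replicate's list, and has no value with 10000 bp. Hosts with a TSS peak were 64.8% with 10000 bp and 66.5% to 70.8% with 1 replicate's list. The rate in gaps over that of the members beside them was 2.11 for the GATA words, 1.47 to 1.95 with 1 replicate's list. For GAGGAAGT it was 5.65, with 6.64 in gaps under 400 bp, 10.2 with −log10 q of at least 5 (27 matches in gaps) and 3.25 to 4.62 with 1 replicate's list. The causes were not tested. No paired analysis was possible because there is 1 group.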

Other observations

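Of the hosts, 573 had no TSS peak. The 5 with most members were Zbtb16 (11), Kcnip1, a potassium channel interacting protein (9), Erg, an ETS factor (8), Esrrg, an orphan nuclear receptor (8), and St6galnac5, a sialyltransferase (8). Both replicate lists overlapped all 8 members of Erg, Esrrg and St6galnac5, 10 of 11 in Zbtb16 and 8 of 9 in Kcnip1. Their signal values ran up to 16.3 in Esrrg and 12.5 in St6galnac5. Erg had 3.08 to 9.33. These 5 genes were chosen after their values were seen.

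RefSeq lists 1006 enhancers on these chromosomes, most of them from transgenic mouse assays, and 32 members (0.866%) overlapped 19 of them. Of the 5373 narrow intergenic peaks, 30 overlapped an enhancer. In 9 of the 19 elements 2 or more members fell in the same enhancer, and in 4 of them 3 members did, among them enhancers in Ubash3b, a negative regulator of tyrosine kinase signalling, in Sla, an adaptor of immune receptors, and in Rgs6, a regulator of G protein signalling. The other enhancers with 2 members included 1 in Ccnd3, the cyclin D3 gene, with signal values of 5.83 and 5.54. A further 3 members overlapped a DNase-hypersensitive site in Rad50 that RefSeq lists, with signal values of 5.34, 2.999 and 3.71. No RefSeq promoter element of 133 was overlapped by a member or by a narrow intergenic peak. Both classes leave out peaks within 5000 bp of a start, so this count is largely set by the rule.

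By density, the leading hosts with 3 or more members were Klf16, a KLF family gene, with 3 members in 3.10 kb of eligible intron, Rgcc, a cell cycle regulator, with 4 in 7.35 kb, and Klf13 with 4 in 10.3 kb. All 3 had a TSS peak. They were chosen after their values were seen. Members over 100 kb from a start held AGATAA near the summit in 37.6% of 93 cases, against 24.2% from 5 to 10 kb, 24.1% from 10 to 20 kb, 24.6% from 20 to 50 kb and 19.7% of 229 members from 50 to 100 kb. The shares did not follow the distance, and no difference between them was tested.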
